A study of Danio rerio with 4 samples.

Results

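The genes described here are those of 2 secreted signals and their receptors in the early zebrafish embryo: apela, which encodes the peptide Toddler, its receptor genes aplnra and aplnrb, the chemokine genes cxcl12a and cxcl12b, and the chemokine receptor genes cxcr4a and cxcr4b. The 7 genes were chosen by name, and each name matched 1 row of a table of 25769 genes. Bulk SLAM-seq was done on whole embryos of the AB/TL strain. This method marks newly made RNA with 4-thiouridine (4sU), and chemical treatment then makes sequencing read the marked T bases as C.

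All embryos had been injected with 4sU at the one-cell stage, so no library lacks the label. The later embryos were collected at 30% epiboly, 4.8 hours post-fertilization (hpf), a stage that the labels give as 6 hpf. The earlier embryos were collected at 1 hpf, the 4-cell stage, before the zygotic genome is broadly active. Per the methods, RNA came from pools of 25 embryos. Each stage had 1 polyA+ library and 1 library from total RNA with ribosomal RNA removed (ribo-depleted). The labels describe the 2 libraries of a stage as technical replicates, so p-values below do not measure the spread between embryos. With library type as a term, they rest on how the stage difference varied between library types, taken mostly from other genes. Library type and sequencing instrument changed together and cannot be told apart.

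Toddler, also called Apela or Elabela, is a small secreted peptide hormone. It binds the apelin receptors, which are G protein-coupled receptors, and in zebrafish it is needed for the movement of mesendodermal cells during gastrulation. The chemokines Cxcl12a and Cxcl12b signal through Cxcr4a and Cxcr4b, also G protein-coupled receptors. This second pair of signals guides primordial germ cells and the lateral line primordium, and it holds endodermal cells to the mesoderm during gastrulation.

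The 4.8 hpf libraries held 10212400 polyA+ reads and 17814709 ribo-depleted reads, and the 1 hpf libraries held 9058807 and 22521675. T was read as C at 1.50% and 1.32% of covered T bases in the 4.8 hpf polyA+ and ribo-depleted libraries, against 0.177% and 0.232% at 1 hpf. Of 26 marker genes tested, 16 rose at 4.8 hpf, including all 4 enveloping layer, 3 yolk syncytial layer and 5 mesoderm markers. Another 6 fell, which were 3 of 6 oocyte or maternal and 3 of 4 germ plasm genes. The remaining germ plasm gene, ddx4, had a log2 fold change of 0.89 and was called in neither direction. Of all genes tested, 18.3% rose and 14.4% fell. The mesoderm markers summed to 1273 and 778 reads per 1000000 reads of the library (RPM) at 4.8 hpf, against 0.736 and 1.78 RPM at 1 hpf, and the part of cell composition in the results below was not tested. Of 4 late tissue markers, only myhz1.1 was in the table, and it was not tested.

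All 7 genes were higher at 4.8 hpf. Summed, they took 542 and 459 RPM at 4.8 hpf in the polyA+ and ribo-depleted libraries, against 13.5 and 7.86 RPM at 1 hpf. Almost all of the 1 hpf reads belonged to cxcr4b, which held 95.1% (polyA+) and 94.9% (ribo-depleted) of the sum at that stage. The other 6 genes together had 4555 and 5970 reads at 4.8 hpf and only 6 and 9 reads at 1 hpf. In whole embryos, more cells of a type and more RNA per cell cannot be told apart.

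**Figure D1:**
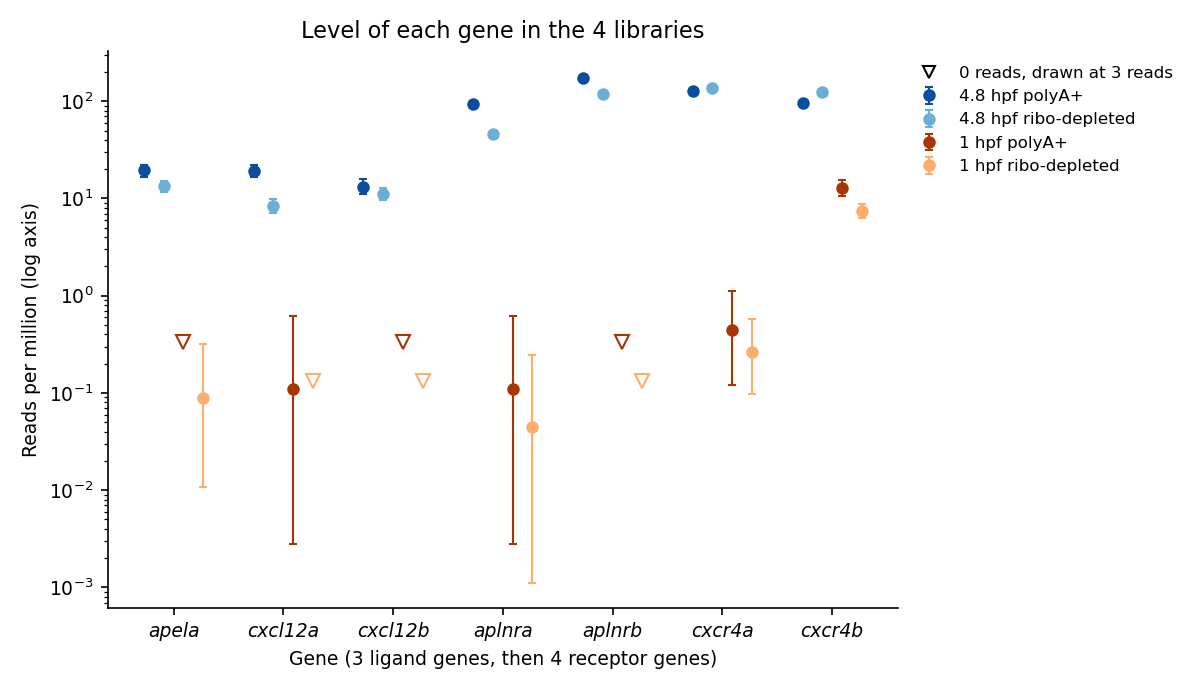
RPM on a log axis for each of the 7 genes, with 4.8 hpf libraries left of 1 hpf libraries. Bars are 95% exact Poisson intervals, which cover counting error only, and open triangles mark genes with 0 reads, drawn at the level of 3 reads. For all 7 genes both 4.8 hpf libraries lie above both 1 hpf libraries, and only cxcr4b exceeds 1 RPM at 1 hpf. The share of all genes with no overlap between the stages was not counted.

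The ligand gene apela had 198.5 and 238.5 reads in the 4.8 hpf polyA+ and ribo-depleted libraries, against 0 and 2 reads in the 1 hpf libraries. Its level was 19.4 (95% exact Poisson interval 16.8 to 22.3) and 13.4 (11.7 to 15.2) RPM at 4.8 hpf. Both 4.8 hpf levels lay above both 1 hpf levels, a pattern whose share over all genes was not counted. These intervals cover counting error only, as do all intervals given for single libraries. Against a floor of 3 reads in the 1 hpf polyA+ library, apela was at least 58.7-fold higher. In the ribo-depleted libraries the ratio was 150, with a wide counting interval of 41.2 to 1249, since it rests on 2 reads.

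The chemokine gene cxcl12a had 196 and 150 reads in the 4.8 hpf polyA+ and ribo-depleted libraries, against 1 and 0 reads at 1 hpf. The polyA+ ratio was 174 (30.8 to 6902), and the ribo-depleted level was at least 63.2-fold higher at 4.8 hpf. Its duplicate cxcl12b had 135.5 and 199 reads at 4.8 hpf and no read in either 1 hpf library. It was therefore at least 40.1-fold and 83.9-fold higher in the polyA+ and ribo-depleted libraries. Neither chemokine gene showed more than a trace at the 4-cell stage.

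Among the receptors, aplnra had 964 and 823 reads at 4.8 hpf and 1 read in each 1 hpf library. The resulting ratios, 855 (153 to 33809) in polyA+ and 1040 (186 to 41145) in ribo-depleted libraries, rest on single reads. The other apelin receptor gene, aplnrb, had 1769 and 2114 reads at 4.8 hpf and none at 1 hpf, at least 523-fold and 891-fold higher. Both receptor genes of the Toddler signal were thus at or near 0 reads in the earlier embryos.

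The chemokine receptor gene cxcr4a had 1292 and 2445 reads at 4.8 hpf, against 4 and 6 reads at 1 hpf. Its ratio was 287 (112 to 1053) between polyA+ libraries and 515 (236 to 1405) between ribo-depleted libraries. Its duplicate cxcr4b stood apart from the other 6 genes. It had 978 and 2200 reads at 4.8 hpf, against 116 and 168 reads at 1 hpf. The ratio was 7.48 (6.16 to 9.15) in the polyA+ libraries and 16.6 (14.1 to 19.5) in the ribo-depleted libraries. As a level, cxcr4b had 95.8 and 123 RPM at 4.8 hpf, and 12.8 and 7.46 RPM at 1 hpf.

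Across the whole table, edgeR's quasi-likelihood test with library type as a term gave 5326 of 16315 genes past a Benjamini-Hochberg adjusted p of 0.05. Of the genes tested, 18.3% were higher and 14.4% lower at 4.8 hpf, and the median log2 fold change was 0.10. All 7 signalling genes were among the higher ones. Except for cxcr4b, they reached the test only through their 4.8 hpf reads, so the filter on low counts alone favoured a difference. Of the 226 genes with at most 3 reads in each 1 hpf library and at least 100 in each 4.8 hpf library, all 226 were called higher.

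For cxcr4b, the one gene with a sizeable 1 hpf level, the log2 fold change was 3.63 ± 0.52 (SE, adjusted p = 5.3e-11, edgeR quasi-likelihood test). The fold change of cxcr4b was matched or exceeded by 1417 of the genes tested, cxcr4b included. The fitted log2 values of the other 6 genes were 7.98 for apela, 8.30 for cxcl12a, 8.80 for cxcr4a, 9.87 for aplnra, 10.58 for cxcl12b and 14.07 for aplnrb. With 0 to 6 reads in each 1 hpf library, these values depend on the model's prior count and on single reads, and are no measure of size. That of apela was 10.67 without the 1 hpf ribo-depleted library, which held its 2 reads. With 1 residual degree of freedom, the test took nearly all of its spread from the other genes.

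Leaving out 1 of the 4 libraries leaves no residual degree of freedom beside stage and library type, so those fits also lacked library type, and a stage left with 1 library was assumed to vary like the other. When the 1 hpf ribo-depleted library was dropped, the log2 fold changes were 6.84 for cxcl12a and 3.08 for cxcr4b, against 8.30 and 3.63 with all libraries. The earlier stage then held 1 library, so only the size is given. With all 4 libraries and no library type, edgeR called 1977 genes in either direction, all 7 among them. The adjusted p (edgeR) was then 0.0156 for cxcl12a and 0.0215 for cxcr4b. DESeq2 called 3747 genes in either direction. It did not call cxcl12b, with a log2 fold change of 10.11 and an adjusted p of 0.0662 (DESeq2), and called the other 6. The share of all genes called higher was not counted for these alternative fits.

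GRAND-SLAM, the program the authors used, gives every gene a new-to-total ratio (NTR), its share of labeled RNA. New RNA is the level times NTR and stored RNA is the remainder. Over all genes, 16.4% and 18.7% of reads were assigned to new RNA in the 4.8 hpf polyA+ and ribo-depleted libraries. For the 7 genes together the shares were 67.8% and 75.1%. Their median NTR was 72.3% and 77.0%, against 8.04% and 8.49% for all genes with at least 100 reads in the library.

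**Figure D2:**
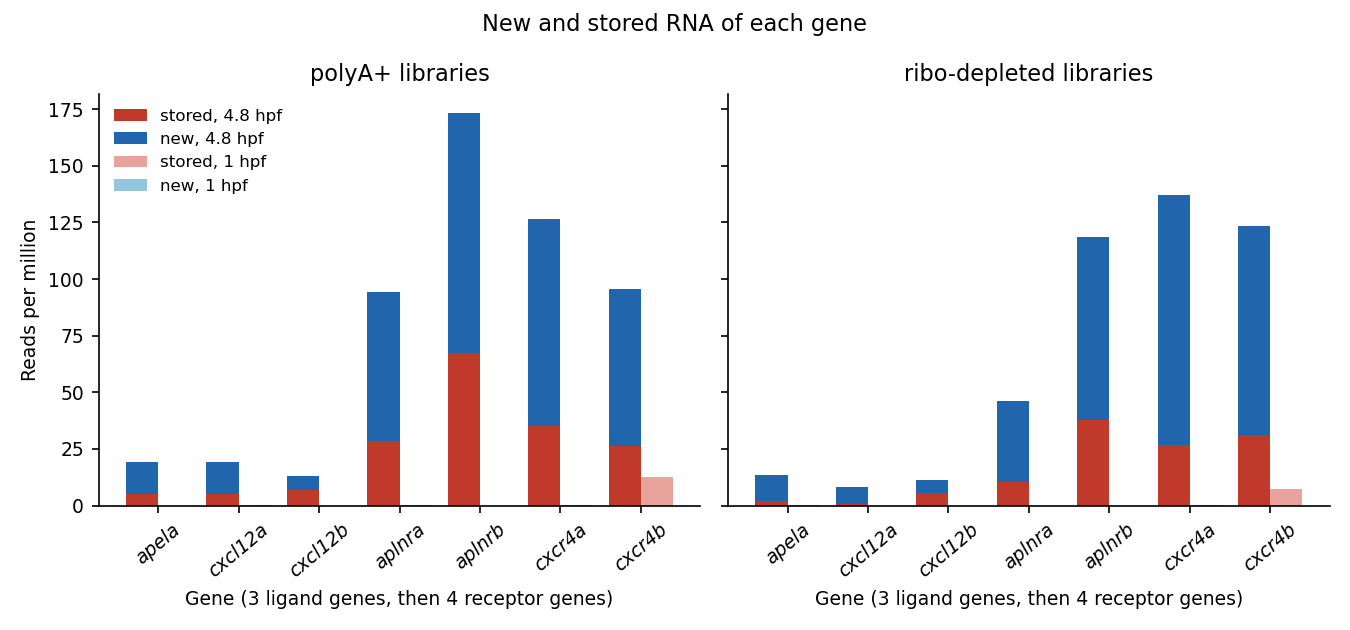
New (blue) and stored (red) RPM of each gene, with the 4.8 hpf bar left of the 1 hpf bar, in polyA+ libraries (left) and ribo-depleted libraries (right). By NTR, new RNA is the larger part of every 4.8 hpf bar except those of cxcl12b, where the parts are nearly equal. Only cxcr4b has a visible 1 hpf bar.

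Among the ligands, apela had an NTR of 74.1% and 85.4% in the 4.8 hpf polyA+ and ribo-depleted libraries. That corresponds to 14.4 and 11.4 RPM of new RNA, beside 5.03 and 1.95 RPM of stored RNA. The NTR of cxcl12a was 73.0% and 93.9%, and the second of these was the highest of the 7 genes in either library. With 7.90 RPM new and 0.515 stored, cxcl12a was almost wholly labeled in the ribo-depleted library.

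The NTR of cxcl12b was 47.9% and 49.3%, the lowest of the 7 genes in both 4.8 hpf libraries. Its new RNA was 6.36 and 5.51 RPM and its stored RNA 6.91 and 5.66 RPM. By NTR, new RNA and the unlabeled remainder were thus nearly equal. The remainder was slightly the larger in both libraries, and NTR has no interval here. As cxcl12b had no read at 1 hpf, this remainder is not shown to be RNA kept from that stage. The balance moved when the labeled share was taken from raw conversions relative to the genes hardly read at 1 hpf, which treats those genes as fully labeled. The percent of T read as C in the whole 1 hpf library of the same type was first subtracted from both. The share was then 68.8% and 72.3%, and new RNA was the larger part. The NTR of cxcl12a exceeded that of cxcl12b by 25.03 percentage points in the polyA+ library and by 44.6 in the ribo-depleted library.

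Among the receptors, aplnra had an NTR of 69.6% and 77.0% and aplnrb of 61.1% and 68.0% at 4.8 hpf. The NTR of aplnra was thus the higher by 8.47 and 8.95 percentage points. The duplicate chemokine receptor genes lay closer together in the polyA+ library, where cxcr4a had 72.3% and cxcr4b 72.7%. In the ribo-depleted library cxcr4a had 80.6% and cxcr4b 74.9%. As a level per kilobase of transcript, new RNA was highest for cxcr4a among the 7 genes, at 55.9 RPM per kilobase (polyA+) and 67.6 RPM per kilobase (ribo-depleted).

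At 1 hpf an NTR above 0 was listed for 1 of the 7 genes in 1 library, cxcr4b in the polyA+ library, at 3.43%. The cxcr4b value rests on 116 reads, and in the ribo-depleted library it was 0% with 168 reads. A T was read as C in cxcr4b at 0.648% (0.36 to 1.02, exact binomial 95% interval) of covered T bases in the 1 hpf polyA+ library and at 0.266% (0.160 to 0.415) in the 1 hpf ribo-depleted library. The other genes listed at 1 hpf had at most 6 reads and an NTR of 0%, which says little at that depth.

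To set these shares beside genes with a like starting point, they were compared with the 226 genes hardly read at 1 hpf, among them 5 of the 7 genes (apela, cxcl12a, cxcl12b, aplnra and aplnrb). The median NTR of these 226 genes at 4.8 hpf was 70.3% (polyA+) and 79.4% (ribo-depleted), and 10% of them lay below 61.4% and 62.7%. For the 126 of them with no read at 1 hpf it was 70.6% and 79.5%, so the NTR of genes with no read at 1 hpf was typically well below a full label. Only 1 of the 226 genes lay below cxcl12b in each library. Above cxcl12a lay 75 genes (polyA+) and 4 genes (ribo-depleted). The NTR of aplnrb lay just below the 61.4% of the polyA+ set and above the 62.7% of the ribo-depleted set. The cxcr4b values of 72.7% and 74.9% lay above the polyA+ median and below the ribo-depleted median of this set, although cxcr4b had been read at 1 hpf.

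**Figure D3:**
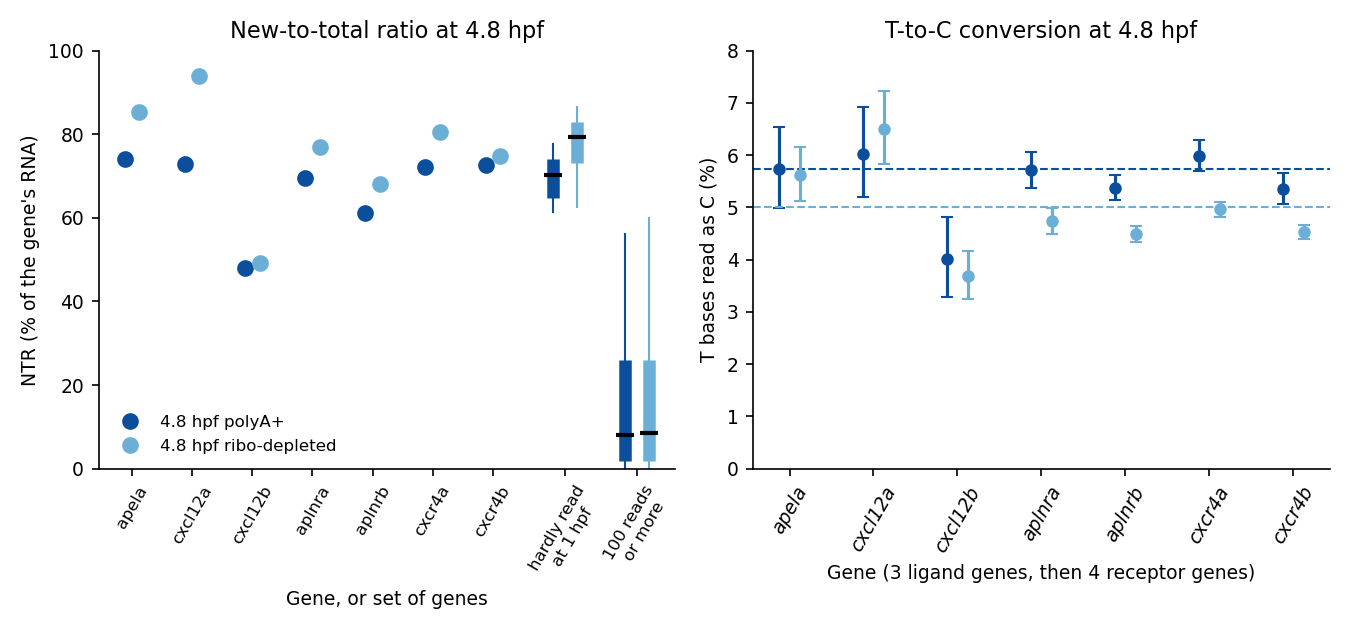
Left, NTR of each gene in the 4.8 hpf polyA+ (dark) and ribo-depleted (light) libraries, beside the 226 genes hardly read at 1 hpf and all genes with 100 reads or more (dash, median; thick bar, quartiles; thin line, from the lowest to the highest decile). Right, percent of covered T bases read as C with 95% exact binomial intervals, and the pooled value of the 226 genes (dashed lines). The points of cxcl12b lie lowest in both plots, at 47.9% and 49.3% NTR.

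The raw conversions placed cxcl12b lowest as well. The NTR is itself estimated from such conversions, so this is no separate check. T was read as C at 4.00% (3.29 to 4.82, exact binomial) of its covered T bases in the 4.8 hpf polyA+ library and at 3.69% (3.24 to 4.17) in the ribo-depleted library. For the 226 genes pooled the values were 5.74% and 5.02%, above both intervals. By contrast, cxcl12a had 6.02% (5.20 to 6.93) and 6.51% (5.83 to 7.22), and only its ribo-depleted interval lay above the pooled value.

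For apela the conversion was 5.73% (4.995 to 6.54) and 5.62% (5.13 to 6.16), again above the pooled value in the ribo-depleted library only. The receptor gene aplnra had 5.72% (5.38 to 6.06) and 4.74% (4.49 to 4.99), and cxcr4a had 5.99% (5.70 to 6.29) and 4.96% (4.82 to 5.11). These intervals held the pooled value, except that of aplnra in the ribo-depleted library, which lay just below it. For aplnrb, at 5.38% (5.14 to 5.62) and 4.49% (4.34 to 4.65), and for cxcr4b, at 5.36% (5.06 to 5.67) and 4.52% (4.39 to 4.66), both intervals lay below the pooled values. T bases of 1 read share a molecule, so these intervals are narrower than the true error.

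By NTR, stored RNA, here the unlabeled remainder, was also higher at 4.8 hpf, but this depended on the estimate. For cxcr4b stored RNA by NTR was 26.2 and 31.0 RPM in the 4.8 hpf polyA+ and ribo-depleted libraries, against 12.4 and 7.46 RPM at 1 hpf, a log2 ratio of 1.08 and 2.05. With the labeled share from raw conversions it was 6.64 and 12.7 RPM at 4.8 hpf, a log2 ratio of -0.90 and 0.77, so that the polyA+ direction turned.

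For cxcr4a stored RNA by NTR was 35.0 and 26.6 RPM at 4.8 hpf, against 0.442 and 0.266 RPM at 1 hpf. From raw conversions none was left in the polyA+ library, where the share came to 104%, and 1.58 RPM in the ribo-depleted library. For the other 5 genes stored reads at 1 hpf were under the floor of 3 reads, so no ratio is given. Their stored RNA at 4.8 hpf by NTR lay between 0.515 RPM, for cxcl12a in the ribo-depleted library, and 67.3 RPM, for aplnrb in the polyA+ library. With few or no reads at 1 hpf, this remainder is not shown to be RNA kept from that stage, for these 5 genes or for cxcr4a. From raw conversions, the labeled share of cxcl12a came to 105% (polyA+) and 131% (ribo-depleted), above a full label. Its stored RNA at 4.8 hpf was therefore set to 0 RPM in both libraries. For aplnrb, stored RNA from raw conversions was 11.4 and 13.1 RPM. Of the rise of cxcr4b between the stages, new RNA by NTR made up 83.4% (polyA+) and 79.7% (ribo-depleted). This share also depended on the estimate. From raw conversions, its polyA+ stored RNA fell from 12.4 to 6.64 RPM, so new RNA exceeded the whole rise there. In the ribo-depleted library its stored RNA was higher at 4.8 hpf by either estimate.

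Levels were compared between genes after division by the transcript length given in the table, as RPM per kilobase (RPKM). In the 4.8 hpf polyA+ library the order was aplnrb (83.0), cxcr4a (77.3), cxcr4b (57.2), aplnra (55.3), apela (22.4), cxcl12a (6.31) and cxcl12b (4.67). Neighbours that did not differ beyond counting error were aplnrb and cxcr4a, at a fold of 1.07 (0.998 to 1.15), and cxcr4b and aplnra, at 1.04 (0.946 to 1.13). In the 4.8 hpf ribo-depleted library the order was cxcr4a (83.9), cxcr4b (73.8), aplnrb (56.9), aplnra (27.0), apela (15.4), cxcl12b (3.93) and cxcl12a (2.77), and every neighbour differed beyond counting error. In both libraries the 4 receptor genes stood above the 3 ligand genes. Of the genes with at least 100 reads, 58.8% and 53.6% had a lower RPKM than apela in the polyA+ and ribo-depleted libraries, while for cxcr4a the shares were 87.9% and 90.8%. For cxcl12a only 17.1% and 7.34% of genes were lower.

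Within the duplicate pairs, aplnra had 0.666 (0.615 to 0.721) and 0.476 (0.438 to 0.516) times the RPKM of aplnrb in the 4.8 hpf polyA+ and ribo-depleted libraries. The cxcr4a level was 1.35 (1.24 to 1.47) and 1.14 (1.07 to 1.21) times that of cxcr4b. Both receptor pairs thus kept their order between library types. The chemokine pair did not: cxcl12a was at 1.35 (1.08 to 1.69) times cxcl12b in the polyA+ library and at 0.705 (0.566 to 0.876) in the ribo-depleted library.

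The library types themselves were compared with stage as a term. Of all genes tested, 11.6% differed between ribo-depleted and polyA+ libraries by edgeR's quasi-likelihood test, and none of the 7 genes did. DESeq2 also called none of the 7. An unadjusted p under 0.05 (edgeR) was reached by 1 of the 7, cxcl12a, and by 3796 of all 16315 genes tested. The largest values were those of cxcl12a, with a log2 fold change of -1.33 ± 0.66 (SE, adjusted p = 0.195, edgeR), and aplnra, with -1.06 ± 0.60 (SE, adjusted p = 0.275, edgeR). By counting error alone, cxcl12a had 0.439 (0.352 to 0.545) times the RPM in the 4.8 hpf ribo-depleted as in the polyA+ library, and aplnra 0.489 (0.445 to 0.538). Missing the threshold does not show that the library types gave equal levels.

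Other genes of apelin and chemokine signalling were read from a list of 60, of which 43 were in the table and 32 had enough reads to be tested. Of these 32, 6 (18.8%) rose, 3 (9.38%) fell and 23 passed in neither direction, against the 18.3% and 14.4% of all genes. Their median log2 fold change was 0.41. The list as a whole thus called about as many higher genes as the whole table.

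Of 15 other ligands, 8 were in the table and 1 was tested, mif, which did not pass (log2 fold change -1.02, adjusted p = 0.124, edgeR). The other 7 had at most 39 reads in any library. Of 16 other receptors, 7 were in the table, 4 were tested and 1 rose. That gene, ackr3b, encodes a scavenger receptor that takes up Cxcl12. It had 193 and 271 reads at 4.8 hpf, against 0.5 and 0 reads at 1 hpf, and an NTR of 76.4% and 78.4%. The only receptor gene of the apelin family in the list, aplnr2, had 15 and 17 reads at 4.8 hpf, against 6 and 61 at 1 hpf. It did not pass (log2 fold change -0.27, adjusted p = 0.779, edgeR).

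Downstream of the receptors, 2 of 12 G protein subunit genes rose and 1 fell. The inhibitory alpha subunit gene gnai1 had 76 and 65.5 reads at 4.8 hpf and 0 and 2 at 1 hpf, whereas its relative gnai2a fell by 1.42 on the log2 scale (adjusted p = 0.018, edgeR). The gamma subunit gene gng2 rose, with a log2 fold change of 2.04 (adjusted p = 0.00073, edgeR). The other 9 passed in neither direction, and their NTR at 4.8 hpf was at most 34.8%, in gnb4b.

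Of 6 receptor regulators tested, the beta-arrestin gene arrb2b rose (log2 fold change 1.50, adjusted p = 0.013, edgeR). In the same group rgs14a, whose product acts on inhibitory alpha subunits, fell by 1.18 on the log2 scale (adjusted p = 0.031, edgeR). Of 9 migration effectors, the RhoA genes rhoaa and rhoab rose and pik3cg, a phosphoinositide 3-kinase catalytic subunit gene, fell. The pattern of rhoab was close to that of the receptors, with 1206 and 937 reads and an NTR of 70.6% and 80.0% at 4.8 hpf, against 4 and 5 reads at 1 hpf. Its duplicate rhoaa had 649 and 835 reads at 4.8 hpf, against 129 and 370 at 1 hpf, and pik3cg had 94 and 388 reads, against 543 and 1657.

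**Figure D4:**
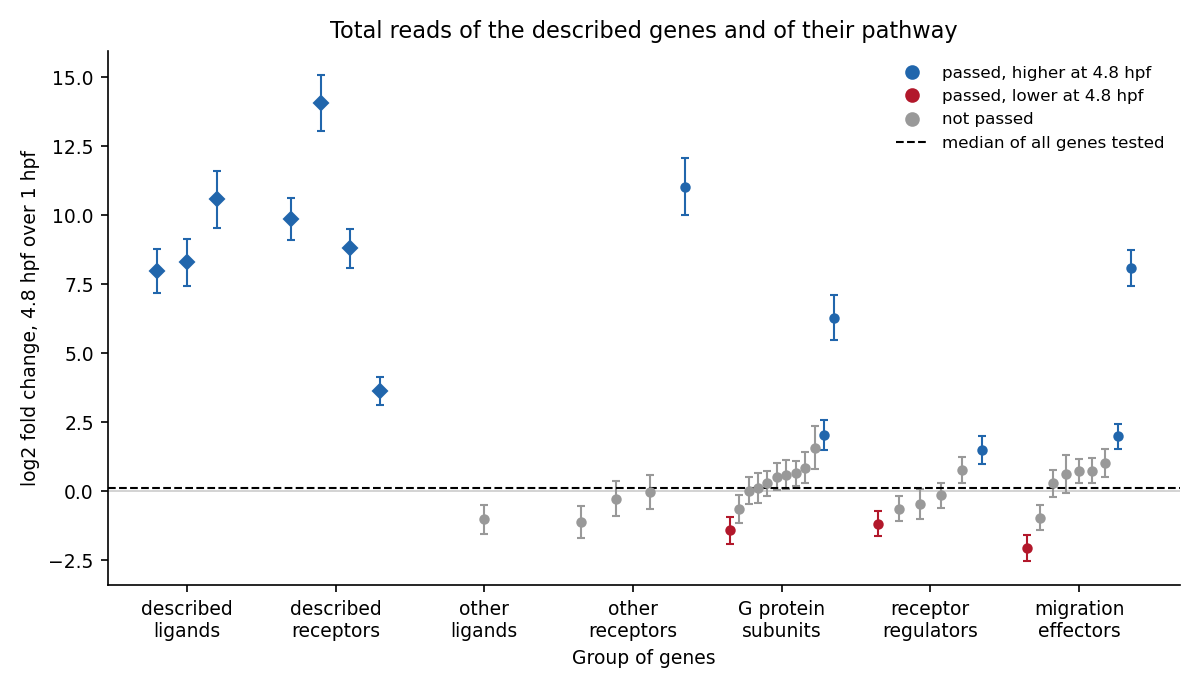
log2 fold change of total reads, 4.8 hpf over 1 hpf, for the 7 described genes (diamonds) and the 32 tested genes of the pathway list (circles). Bars are standard errors derived from the fold change and the F statistic of the edgeR test. The dashed line marks the median of all genes tested, 0.10. Of the 32, 6 genes passed as higher (blue) and 3 as lower (red), while fitted values of genes with no read at 1 hpf depend on the prior count.

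For each gene, the most similar others were sought among 9773 named genes, by distance over 8 values, the log2 of new and of stored RPM plus 1 in each of the 4 libraries. Nearest to apela was the keratin gene krt17 (distance 0.24), with 20.4 and 12.2 RPM and an NTR of 77.2% and 85.5% at 4.8 hpf. The second nearest to apela was si.ch211.223a21.3 (0.37). Nearest to cxcl12a were CR847953.1 (0.55) and gcnt7 (0.62). Nearest to cxcl12b was znf1110 (0.38), a zinc finger gene whose NTR was also low, 42.6% and 48.6%, followed by tgm2l (0.65).

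The receptor aplnra lay nearest to fam13a (0.28) and mapk12b (0.33), and aplnrb to mxtx1 (0.43), a yolk syncytial layer transcription factor gene, and sox19a (0.66). The nearest genes to cxcr4a were slc25a55a (0.56) and eppk1 (0.59). No gene lay as close as these to cxcr4b. Its nearest were pcdh1b (1.34) and ptbp1a (1.35), each with 1 hpf reads and a high NTR at 4.8 hpf. These distances describe 4 libraries only.

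The genes next to the 7 on the chromosome were also read. Neighbours were taken from the RefSeq table of the assembly GRCz12tu, which differs from the build the reads were aligned to, GRCz11, so only the names are used. Of the 11 neighbours found in the table, 8 were tested and 2 rose, against 18.3% of all genes tested, too few to set apart from that share. The 2 were ercc6 beside cxcl12a, with a log2 fold change of 3.51 and an NTR of 72.0% and 64.6% at 4.8 hpf, and hmox2a beside cxcl12b, with a log2 fold change of 1.42 and an NTR of 16.6% and 14.0% (both by edgeR). The tbc1d10aa gene beside aplnra and the tbc1d10ab gene beside aplnrb, duplicates of each other, passed in neither direction (adjusted p = 0.778 and 0.138, edgeR).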

How the data were processed

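The deposited table held, per gene and library, an estimated count of reads, the number of covered T bases (coverage), the number read as C, and the NTR as a fraction. Per the methods and the submitters' processing notes, the authors used cutadapt for trimming and STAR for alignment (build GRCz11), and GRAND-SLAM with Ensembl annotation gave the estimated counts and NTR. Rows named stage and sequencer, which the labels tie to library type, but no replicate number. The concentration of injected 4sU differs between labels and methods and is not given here.

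RPM values used all reads of a library. The genes and lists were chosen with earlier results of these data known. The rule for further names was the 2 nearest genes of each of the 7 and any pathway gene past the test; mif, aplnr2, gnb4b and the chromosomal neighbours were added after their values were seen. Expected counts, fractional in part, were rounded and tested by the quasi-likelihood method of edgeR 4.0.16 under R 4.3.3 (TMM, filterByExpr, stage and library type as terms). Adjustment was Benjamini-Hochberg over all genes, threshold 0.05. Standard errors given with edgeR are not an output of that test. Each was derived as the absolute log2 fold change divided by the square root of the test's F statistic. The code was tested on simulated data. DESeq2 1.42.0, other scalings and filters, and each library left out in turn were alternatives. Values for single libraries have no test. Names for unnamed genes, 3 of the pathway list and 1 marker, came from a list of Ensembl identifiers. Promoter motifs were not analysed here.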

Additional observations from a re-analysis of the deposited data

Results flagged for a closer look

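The cxcr4b level by library type pointed in opposite directions at the 2 stages. The ribo-depleted library had 1.29 (1.20 to 1.39) times the RPM of the polyA+ library at 4.8 hpf and 0.583 (0.457 to 0.745) times at 1 hpf. For cxcr4a the ratio was 1.08 (1.01 to 1.16) at 4.8 hpf and 0.603 (0.143 to 2.91) at 1 hpf. At 1 hpf cxcr4a had 6 ribo-depleted and 4 polyA+ reads, and its interval held 1, so no direction is shown there. With 1 library for each stage and type, the difference between the stages was not tested, and the intervals cover counting error only.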

How the results depend on the processing

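No paired analysis was possible because the deposited rows carry no replicate number. The stage comparison had library type as a term, which sets libraries of a type against each other across stages. All 7 genes kept a higher level at 4.8 hpf in every fit run. With all 4 libraries, all 7 passed by edgeR and 6 by DESeq2, which called 3747 genes in either direction. The edgeR fit with library type as a term called 18.3% of all genes tested higher. Except for cxcr4b, the 7 genes had at most 6 reads in each 1 hpf library, so their direction could hardly change between fits. The count of genes called between stages was 3252 with at least 100 reads in at least 2 libraries, 1977 without library type in the model, and 952 to 1675 with 1 library left out, fits that also lacked library type, against 5326 with it. Without TMM the median log2 fold change between stages was -0.06 in place of 0.10. Without stage as a term, 0 genes differed by library type, and the log2 fold changes of cxcr4a and cxcr4b were 0.12 and 0.25 in place of -0.16 and -0.36. The cause was not tested.

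Taken from raw conversions relative to the genes hardly read at 1 hpf, the median labeled share of the 7 genes was 99.5% in polyA+ and 94.1% in ribo-depleted libraries at 4.8 hpf, and 99.2% and 94.2% relative to genes with no read at 1 hpf (an alternative chosen after seeing the data). Each reference treats its genes as fully labeled. The first holds 5 of the 7 genes, and the second, a part of the first, holds cxcl12b and aplnrb. A median near a full label partly follows from this, and the second reference is no separate check. By the first reference the share of cxcl12b was 68.8% and 72.3%, still the lowest. With raw-conversion shares (also chosen after seeing the data for this use), the log2 ratio of stored RNA between the polyA+ libraries turned to -0.90 for cxcr4b and -0.59 for cxcr4a, the second against a floor of 3 reads. Only 2 of the 7 genes had the same rank by NTR in both library types. At 1 hpf, depth limits all but cxcr4b: 3 reads equal 0.331 RPM (polyA+) and 0.133 RPM (ribo-depleted).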
